A study of Mus musculus with 7 samples.

Results

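The T cell receptor complex and its first signalling enzymes were followed through tumours injected with vesicles of senescent cancer cells. The group held 10 genes, found by symbol among the 55487 genes of the table: the receptor chain genes Trac, Trbc1 and Trbc2, the CD3 chain genes Cd3d, Cd3e, Cd3g and Cd247, the coreceptor gene Cd8a and the kinase genes Lck and Zap70. Expression is given in TPM, transcript abundance scaled to the library total, a level corrected for transcript length, so levels of different genes can be set side by side. No test called a member different between groups, although most members stood above the typical gene in the tumours given senescent-cell vesicles.

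A T cell recognises peptide on MHC molecules through an αβ receptor whose constant regions are encoded by Trac and by Trbc1 or Trbc2. That receptor has almost no signalling tail of its own and reaches the surface together with the CD3 chains, whose tails carry tyrosine motifs. On cytotoxic T cells CD8 binds MHC class I and brings the kinase Lck, which phosphorylates the CD3 tails, and Zap70 then docks there and passes the signal to adaptors such as Lat. In a tumour these transcripts come mainly from infiltrating lymphocytes, not from the carcinoma cells.

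The tumours were primary tumours of BALB/c mice labelled WT, grown in the mammary fat pad from 4T1-12b(luc) cells, a luciferase-carrying derivative of the 4T1 mouse mammary carcinoma line. From about 150 mm3 they received 6 intratumoral injections of 50 µl, spaced every other day, and every sample carries the time label Day 12. The injected material was saline in 3 libraries. In 1 library it was small extracellular vesicles (Cont sEV) from 4T1 cells kept in DMSO for 72 h and released for 72 h. In 3 libraries it was vesicles (TIS sEV) from 4T1 cells made senescent with 100 ng/ml nocodazole on the same schedule. Nocodazole blocks microtubule assembly. The vesicle columns carry the abbreviations CE and NcE, read here as Cont sEV and TIS sEV, and the labels do not spell this out. Replicates are numbered without a statement that they are separate animals, so p-values measure only how far these samples spread, and that spread may be technical.

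TIS sEV replicate 2 stood apart from the other libraries before any comparison. Its TPM was 22.9% ribosomal RNA, where the other 6 libraries had 0.807% to 2.40%, and 28.6% protein-coding, where they had 56.8% to 74.7%. Genes reaching 1 TPM numbered 8909 in it and 11378 to 12328 in the others. Its median-of-ratios size factor, a measure of the level of its typical gene, was 0.355 against 1.00 to 1.52. Member levels are therefore given both as deposited and divided by the size factor, and tests with and without this library. In bulk tumour RNA, fewer T cells and less RNA per T cell cannot be told apart.

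The β constant genes are shown first, since Trbc2 gave the largest fitted difference among the tested members and since its reads are hard to separate from those of its neighbour. Trbc1 (chr6:41538218-41539881, plus strand, GRCm38) and Trbc2 (chr6:41546730-41548352, plus strand) lie 6848 bases apart and encode alternative constant regions of the β chain. Over 518 coding bases they differed at 23, an identity of 95.6%, and the 375 bases of exon 1 held 1 mismatch. Exon 3 holds most of the differences, 15 of 107 bases, and capitals mark them in the genome sequence of Trbc1 (chr6:41539229-41539335, plus strand) and Trbc2 (chr6:41547772-41547878, plus strand).
Trbc1 exon 3: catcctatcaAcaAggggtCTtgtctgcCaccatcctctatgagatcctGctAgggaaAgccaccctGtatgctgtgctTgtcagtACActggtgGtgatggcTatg
Trbc2 exon 3: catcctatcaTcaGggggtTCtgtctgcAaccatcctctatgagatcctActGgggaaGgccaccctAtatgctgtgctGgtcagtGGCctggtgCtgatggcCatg
Of the 31-base words of the annotated transcripts, 54.6% of those in Trbc1 and 51.5% of those in Trbc2 were not in the other. The rest fit both genes, so the split of reads between them is uncertain, and on deposited TPM their sum is given beside each.

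Trbc2 measured 4.11, 7.53 and 8.57 TPM in saline replicates 1 to 3, 5.89 in Cont sEV, and 16.8, 5.59 and 22.0 in TIS sEV replicates 1 to 3. TIS sEV replicates 1 and 3 were thus above all saline libraries, while replicate 2 lay within their range. Trbc1 measured 3.75, 6.55 and 6.23 TPM in saline, 8.07 in Cont sEV, and 6.98, 5.09 and 6.39 in TIS sEV. Its highest value was the Cont sEV library, and the saline and TIS sEV values were interleaved. Summed, the β constant genes reached 7.87, 14.1 and 14.8 TPM in saline, 14.0 in Cont sEV, and 23.8, 10.7 and 28.3 in TIS sEV. The sum kept the pattern of Trbc2, with the same libraries on top.

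Trac (chr14:54220521-54224206, plus strand), the single α constant gene, measured 2.95, 3.21 and 7.02 TPM in saline, 2.00 in Cont sEV, and 3.67, 0.784 and 7.12 in TIS sEV. The groups overlapped fully, and the highest saline and TIS sEV libraries were nearly level. Trac relative to the summed β constant genes was 0.374, 0.228 and 0.475 in saline, 0.143 in Cont sEV, and 0.155, 0.0735 and 0.251 in TIS sEV. The α to β ratio was thus lower in Cont sEV than in every saline library, and TIS sEV overlapped saline through replicate 3.

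**Figure D1:**
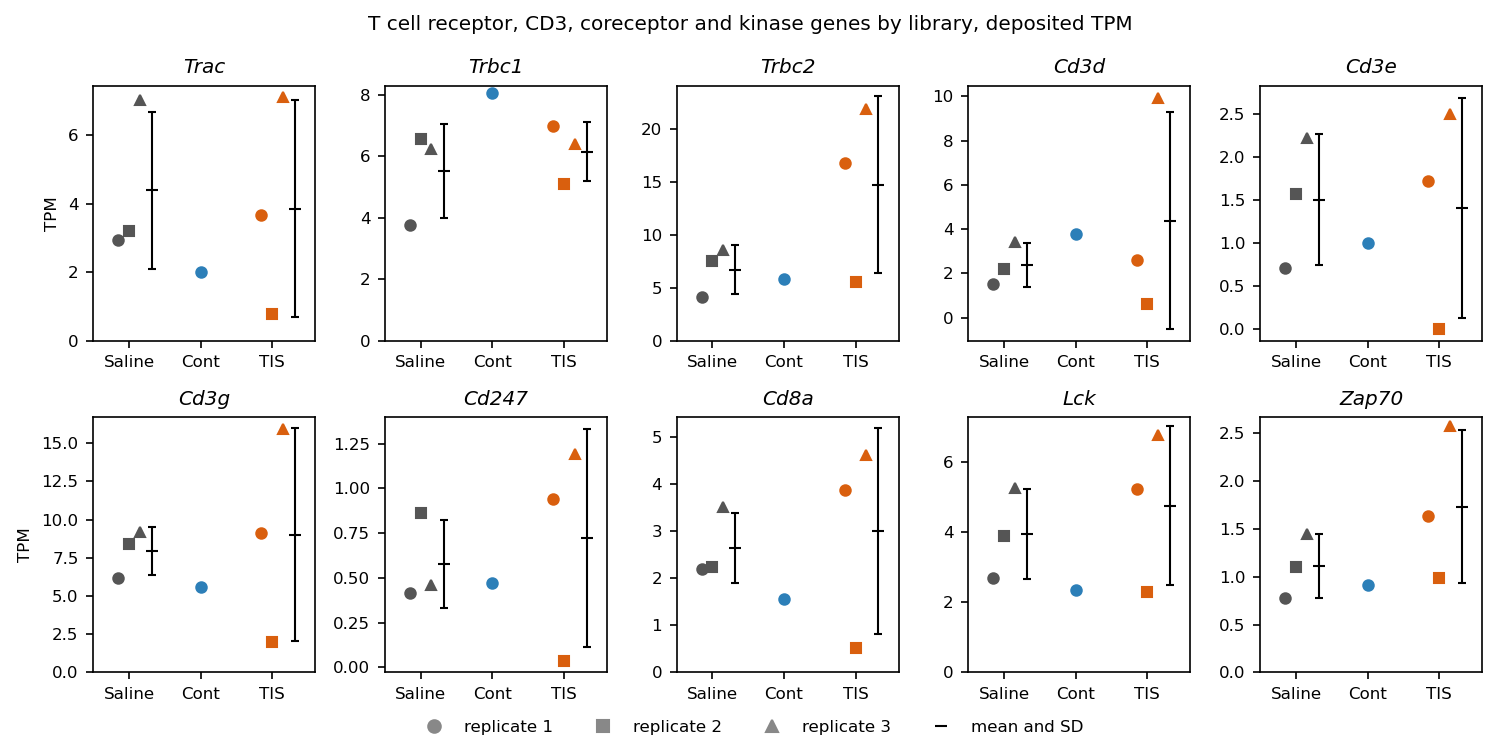
Deposited TPM (vertical axes, from 0 or just below) of the 10 genes in each library, by group; circles, squares and triangles are replicates 1, 2 and 3, and the black bar is the mean with its SD over 3 libraries for saline and TIS sEV. TIS sEV replicate 2 (square) is the lowest library for 7 genes and TIS sEV replicate 3 (triangle) the highest for 9, and saline and TIS sEV overlap for all 10.

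Cd3g, Cd3d and Cd3e form 1 cluster on chromosome 9, spanning 40056 bases, and the starts of Cd3g and Cd3d, which face away from each other, are 1355 bases apart. Their promoters are shown because these members share a locus. On deposited TPM all 3 were lowest in TIS sEV replicate 2 and highest in replicate 3, as were Trac, Cd247, Cd8a and Lck on other chromosomes, and over size factors their lowest libraries differed. The windows are the 250 bases before the start in RefSeq (GRCm38.p6): Cd3g chr9:44980432-44980681, minus strand, Cd3d chr9:44981536-44981785, plus strand, and Cd3e chr9:45009612-45009861, minus strand. Capitals mark matches, on either strand, to the letters TGTGGT (RUNX motif), AGGAAG (ETS motif) and CACCTG (E-box); matches of different motifs did not overlap in these windows.
Cd3g promoter: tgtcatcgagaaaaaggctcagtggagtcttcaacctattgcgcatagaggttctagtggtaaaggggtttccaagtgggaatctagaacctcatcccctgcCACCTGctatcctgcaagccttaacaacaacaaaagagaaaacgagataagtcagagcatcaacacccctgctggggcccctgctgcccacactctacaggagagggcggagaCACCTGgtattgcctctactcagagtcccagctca
Cd3d promoter: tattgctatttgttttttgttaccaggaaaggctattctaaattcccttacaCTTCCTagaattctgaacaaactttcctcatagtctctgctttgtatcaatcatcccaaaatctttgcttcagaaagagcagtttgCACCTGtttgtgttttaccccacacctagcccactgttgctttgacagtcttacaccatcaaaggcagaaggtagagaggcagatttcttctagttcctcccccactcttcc
Cd3e promoter: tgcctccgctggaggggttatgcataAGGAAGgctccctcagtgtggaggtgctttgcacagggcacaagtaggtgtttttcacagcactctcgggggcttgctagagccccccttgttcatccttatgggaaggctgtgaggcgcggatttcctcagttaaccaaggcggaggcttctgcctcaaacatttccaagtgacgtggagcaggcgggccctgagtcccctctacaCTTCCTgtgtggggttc
The RefSeq table held 7 of the 10 members. An E-box match was in a window of 5 of these 7 genes and in 17.22% of all 32851 promoter windows, an ETS match in 5 of 7 and 29.48%, and a RUNX match in 2 of 7 and 14.05%. Member genes with several annotated starts had several windows, which raises their chance of a match. A match is a string of letters and shows no binding.

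Cd3g (chr9:44969572-44980431), the γ chain, was the most abundant CD3 chain at 6.17, 8.39 and 9.22 TPM in saline, 5.57 in Cont sEV, and 9.16, 1.98 and 15.9 in TIS sEV. It was the highest of all 10 genes in every saline library, whereas Trbc2 was the highest in every TIS sEV library and Trbc1 in Cont sEV. Cd3d (chr9:44981786-44987339), the δ chain, measured 1.50, 2.21 and 3.43 TPM in saline, 3.76 in Cont sEV, and 2.61, 0.601 and 9.94 in TIS sEV. Only TIS sEV replicate 3 exceeded every saline library. Cd3e (chr9:44998740-45009627), the ε chain that pairs with both of the former, measured 0.714, 1.57 and 2.23 TPM in saline, 1.00 in Cont sEV, and 1.72, 0 and 2.51 in TIS sEV. It is listed at 0 in TIS sEV replicate 2, where TPM alone cannot show whether reads were absent or too few. Cd247 (chr1:165788681-165877277, plus strand), the ζ chain that carries the most signalling motifs, measured 0.414, 0.862 and 0.459 TPM in saline, 0.469 in Cont sEV, and 0.938, 0.0372 and 1.19 in TIS sEV. It reached 1 TPM in 1 library and was left out of the test, which required 1 TPM in 3 of the 7.

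Cd8a (chr6:71373427-71379173, plus strand), the CD8 α chain, measured 2.20, 2.25 and 3.51 TPM in saline, 1.56 in Cont sEV, and 3.88, 0.518 and 4.62 in TIS sEV. Again TIS sEV replicates 1 and 3 were above all saline libraries and replicate 2 was the lowest of all 7. Lck (chr4:129548344-129573641, minus strand), the CD8-bound Src family kinase, measured 2.70, 3.88 and 5.26 TPM in saline, 2.34 in Cont sEV, and 5.22, 2.29 and 6.77 in TIS sEV. Its lowest value, TIS sEV replicate 2, was close to the Cont sEV library. Zap70 (chr1:36761798-36782818, plus strand), the kinase that docks on phosphorylated CD3 tails, measured 0.782, 1.10 and 1.45 TPM in saline, 0.909 in Cont sEV, and 1.63, 0.988 and 2.57 in TIS sEV. Its TIS sEV replicate 2 stayed inside the saline range.

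Ordered by mean TPM over the 7 libraries, the genes ran from Trbc2 (10.1) through Cd3g (8.06), Trbc1 (6.15), Lck (4.07), Trac (3.82), Cd3d (3.44), Cd8a (2.65), Cd3e (1.39) and Zap70 (1.35) to Cd247 (0.625). Each neighbouring pair in that order overlapped in range over the libraries. Summed over the 10 genes, the level was 36.7 ± 11.1 TPM in saline and 49.8 ± 30.6 TPM in TIS sEV (mean ± SD, n = 3 each), and 31.6 TPM in the Cont sEV library. The SD of TIS sEV came from libraries at 52.6, 17.9 and 79.0 TPM, and without replicate 2 the mean was 65.8 TPM.

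The comparison of TIS sEV with saline asks how vesicles of senescent tumour cells alter the tumour, here its T cell receptor transcripts. On the log2(TPM + 1) scale the median of 12058 tested genes differed by -0.62 between these groups, so each member is given relative to that median gene. All 9 tested members stood above it: Trbc2 by 1.51, Zap70 by 0.96, Cd3d by 0.90, Lck by 0.78, Trbc1 by 0.77, Cd8a by 0.56, Cd3g by 0.47, Cd3e by 0.42 and Trac by 0.29. Their median was 0.77, as against 0 over all tested genes by construction. Adding 1 to TPM draws the differences of low genes toward 0, which lies above a median gene at -0.62. With 0.1 added instead, 8 of 9 stood above the median gene (median 0.97), and Cd3e was at -0.13. No member passed the test of its own difference from 0: limma called 0 of 9, against a background of 0.514% of genes called, and 0 of 9 had an unadjusted p under 0.05, as 10.3% of all tested genes had. Trbc2 came nearest, with a fitted log2 difference of 0.90 (SE 0.65, 95% interval -0.38 to 2.17, limma adjusted p = 0.491). For Trac the fitted difference was -0.33 (SE 0.56, adjusted p = 0.714) and for Cd8a -0.06 (SE 0.51, adjusted p = 0.945). The interval of Cd8a, -1.05 to 0.93, covers changes of nearly 1 log2 unit either way, so these data do not show that Cd8a was level.

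Leaving out TIS sEV replicate 2 kept all 9 above the median gene, with a median of 0.73. Trbc2 then had a fitted difference of 1.43 (SE 0.41, adjusted p = 0.0587) and Cd3d 0.94 (SE 0.40, adjusted p = 0.442), the only members with an unadjusted p under 0.05, 2 of 9 against 8.23% of all tested genes. Without TIS sEV replicate 3 instead, 8 of 9 stood above the median gene, their median was 0.35, and Trac turned to -0.07.

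**Figure D2:**
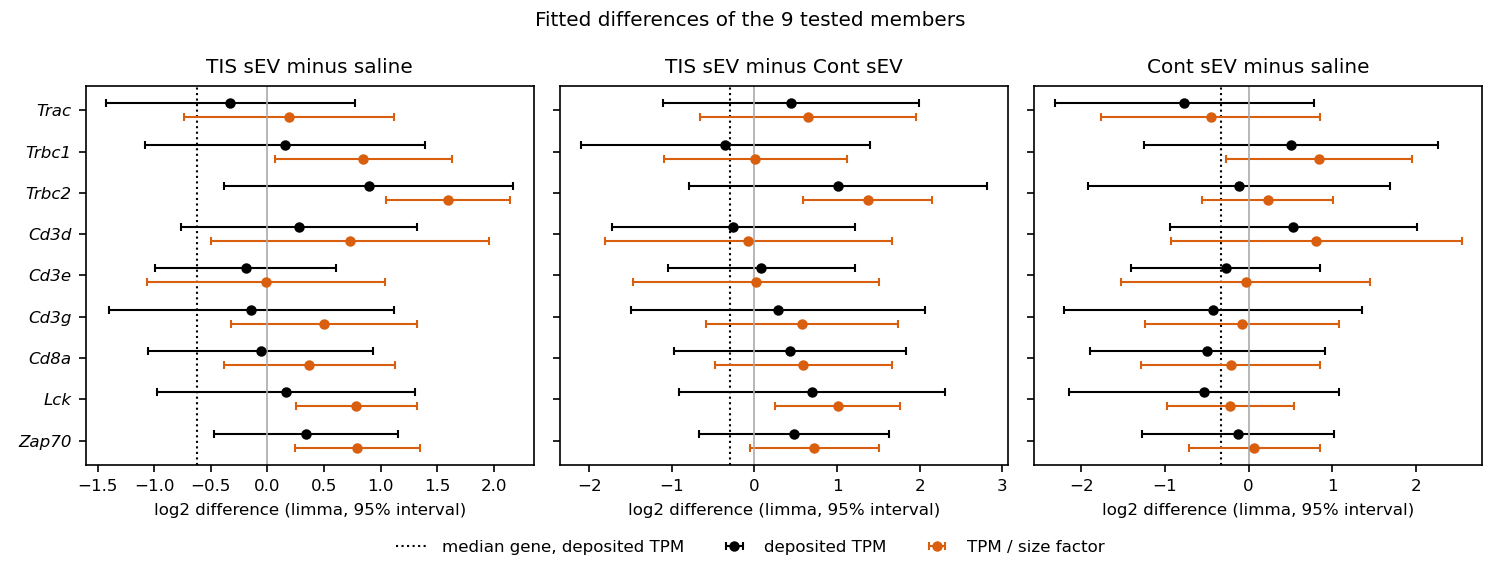
Fitted log2 differences (horizontal axes) with 95% limma intervals for the 9 tested genes in the 3 comparisons, from deposited TPM (black) and TPM divided by size factors (orange); the dotted line is the median gene on deposited TPM. In TIS sEV minus saline, all 9 black points lie right of the dotted line at -0.62 and all 9 black intervals cross 0.

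Dividing TPM by the size factors brought the median gene to -0.0037 and put the groups on the level of their typical gene. Trbc2 then stood at 4.05, 4.95 and 5.63 in saline, 5.83 in Cont sEV, and 13.3, 15.7 and 21.9 in TIS sEV. All 3 TIS sEV libraries were above the rest by a wide gap. Zap70 stood at 0.770, 0.721 and 0.954 in saline, 0.901 in Cont sEV, and 1.30, 2.78 and 2.57 in TIS sEV. Lck stood at 2.66, 2.55 and 3.46 in saline, 2.32 in Cont sEV, and 4.15, 6.45 and 6.76 in TIS sEV. Both kinases thus also had every TIS sEV library on top. Trbc1 was higher in TIS sEV (5.55, 14.3 and 6.38) than in saline (3.70, 4.31 and 4.09), but the Cont sEV library, at 7.99, was above TIS sEV replicates 1 and 3. These were 4 of the 9 tested members without overlap, where 11.4% of all tested genes were likewise higher in every TIS sEV library. On deposited TPM the count was 0 of 9 (background 0.862%), and 0 of 9 were lower in every TIS sEV library, as 13.5% of tested genes were.

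On this scale the fitted log2 difference was 1.60 for Trbc2 (SE 0.23), 0.85 for Trbc1 (SE 0.33), 0.79 for Zap70 (SE 0.23) and 0.79 for Lck (SE 0.23). These 4 of 9 had an unadjusted p under 0.05, as had 8.27% of all tested genes in that direction, and for Trbc2 it was 0.00024. None passed the adjustment over all genes: the limma adjusted p was 0.321 for Trbc2 and 0.338 for the others, and no gene in the table was called. Cd3d was at 0.73, Cd3g at 0.50, Cd8a at 0.37, Trac at 0.19 and Cd3e at -0.01, with groups that overlapped. Of the CD3 chains, Cd3g was nearly level among the saline libraries (6.07, 5.52 and 6.06) and in Cont sEV (5.51), and TIS sEV held 7.28, 5.57 and 15.9. Trbc1 and Trbc2 were counted as separate members on this scale, although the split of their reads is uncertain. Their sum was fitted on deposited TPM only, where it stood 1.29 above the median gene (limma adjusted p = 0.558).

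Overlap was also counted with TIS sEV replicate 2 left out, a setting chosen after the data were seen, in which fewer libraries have to separate. On deposited TPM, 3 of 9 tested members (Trbc2, Cd8a, Zap70) were higher in both remaining TIS sEV libraries than in all saline libraries, against 5.67% of tested genes, and Cd247, not tested, was too. Over size factors it was 6 of 9, adding Trbc1, Cd3g and Lck, against 15.7%. Trac, Cd3d and Cd3e overlapped on both scales. The same 6 had an unadjusted p under 0.05 (background 6.60%), with fitted differences from 0.48 for Trbc1 to 1.67 for Trbc2. Their limma adjusted p was 0.382 to 0.389, so 0 of 9 were called here as well.

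**Figure D3:**
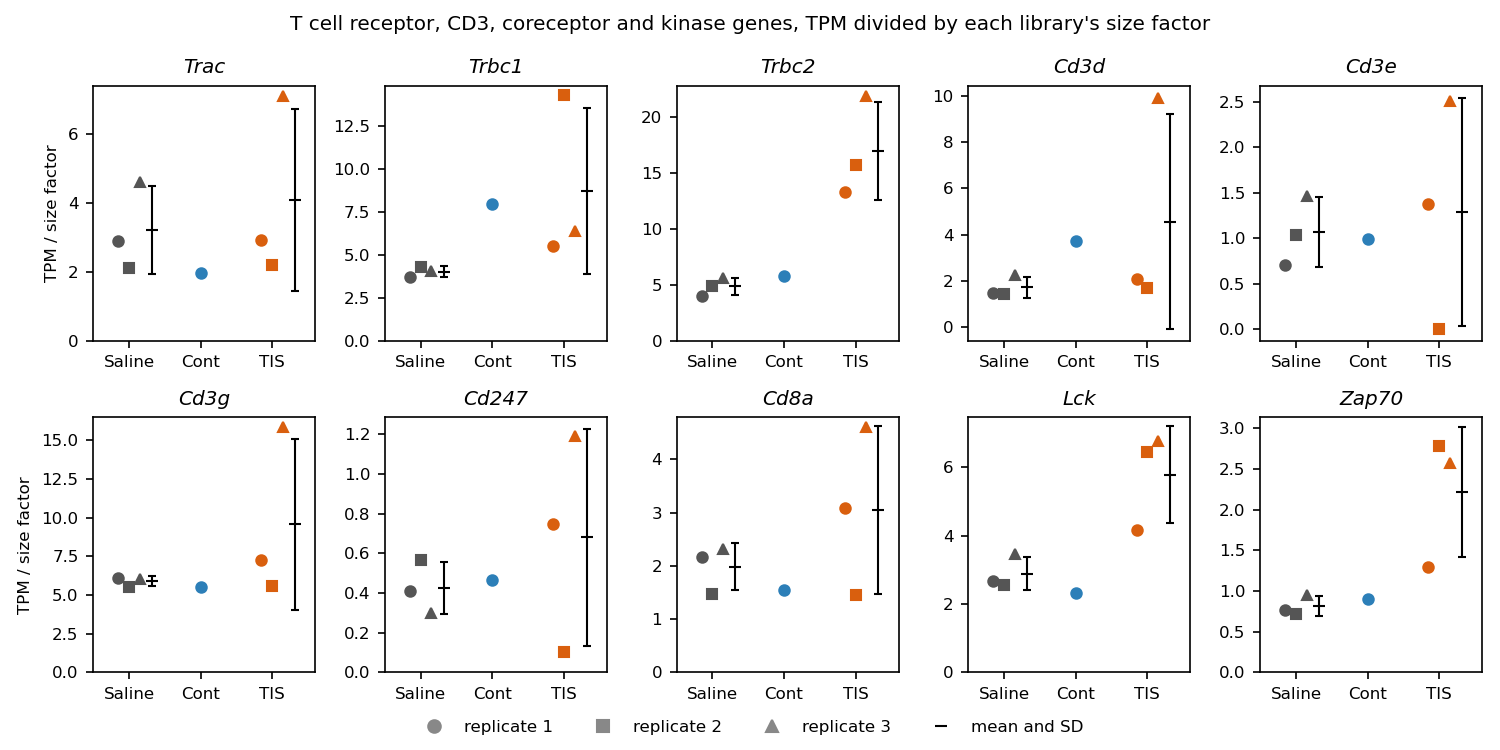
TPM divided by each library's size factor (vertical axes) for the 10 genes by group, with symbols and bars as replicate numbers and as mean with SD over 3 libraries. For Trbc2, Trbc1, Lck and Zap70 every TIS sEV library is above every saline library. For Cd3e, Cd247 and, by a small margin, Cd8a, TIS sEV replicate 2 (square) is at the bottom.

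Transcript length moved with the level in TIS sEV replicate 2, and the members differ widely in length. Over size factors, tested coding genes under 1000 bases had a median log2 level 0.83 above the saline mean in that library, those of 1000 to 2000 bases 0.40, those of 2000 to 4000 bases -0.02 and longer ones -0.32. In the mean of TIS sEV replicates 1 and 3 the medians were 0.33, 0.21, 0.02 and -0.15. Trbc1 (737 bases), Trbc2 (692) and Trac (935) fall in the shortest class. In TIS sEV replicate 2, Trbc2 was 1.52 and Trbc1 1.61 above the saline mean, values that 12.8% and 10.6% of the genes in their class exceeded, whereas Trac was at -0.35. In replicates 1 and 3, Trbc2 was 1.63 above, exceeded by 1.46% of its class. Lck (2185 bases) and Zap70 (2245) were 0.95 and 1.06 above in replicate 2, exceeded by 8.17% and 6.30% of the 2000 to 4000 base class. The part of length in these differences was not tested.

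**Figure D4:**
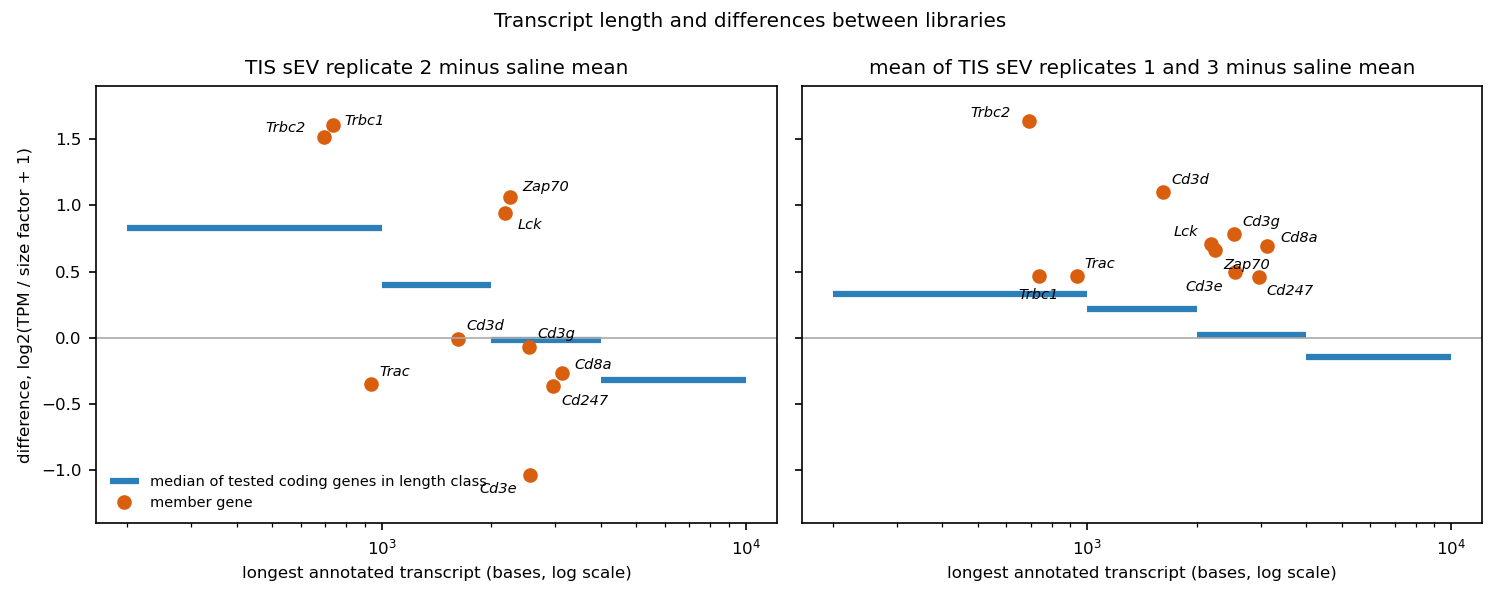
Difference from the saline mean in log2(TPM / size factor + 1) (vertical axis) against the longest annotated transcript (horizontal, log scale) for the 10 genes (points) and the median of tested coding genes in 4 length classes (blue lines; the outer ends of the first and last line are drawn, not measured). In TIS sEV replicate 2 the class medians run from 0.83 to -0.32, and in replicates 1 and 3 from 0.33 to -0.15.

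The comparison with the Cont sEV library asks whether senescent-cell vesicles differ from vesicles as such, and rests on 1 library that was assumed to vary like the others. Fits in this paragraph are on deposited TPM from all libraries unless size factors are named. For TIS sEV against Cont sEV, 8 of 9 members stood above the median gene (median 0.72), led by Trbc2 at 1.30, Lck at 0.99, Zap70 at 0.77, Trac at 0.73 and Cd8a at 0.72. Trbc1 was at -0.06, since the Cont sEV library held its highest level. Limma called 0 of 9 (background 0.224%), none had an unadjusted p under 0.05 (background 1.73%), and the interval of Trbc2 ran from -0.79 to 2.82. For Cont sEV against saline 5 of 9 stood above the median gene, with a median of 0.06, from Cd3d at 0.87 and Trbc1 at 0.84 down to Trac at -0.44. Limma called 0 of 9 (background 0.207%), again with none at an unadjusted p under 0.05 (background 2.33%). With size factors, TIS sEV against Cont sEV had 8 of 9 members above the median gene, with a median of 0.59. These comparisons share libraries with the first, and their values are not independent of it.

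Ratios between genes of 1 library do not depend on its scaling. Trbc2 relative to Trbc1 was 1.09, 1.15 and 1.38 in saline, 0.730 in Cont sEV, and 2.40, 1.10 and 3.44 in TIS sEV. TIS sEV replicates 1 and 3 exceeded the rest, replicate 2 lay at the low end of saline, and Cont sEV was the only library with more Trbc1 than Trbc2. Cd8a relative to the summed Cd3d, Cd3e and Cd3g was 0.263, 0.185 and 0.236 in saline, 0.151 in Cont sEV, and 0.287, 0.201 and 0.163 in TIS sEV, with groups that overlapped. Cd8b1, the CD8 β chain of conventional cytotoxic T cells, was 0.671, 0.997 and 0.746 of Cd8a in saline, 0.784 in Cont sEV, and 1.06, 0.879 and 0.848 in TIS sEV. Cd4, the helper T cell coreceptor, was 0.0543 to 0.392 of Cd8a in the 7 libraries, so Cd8a was the more abundant coreceptor transcript in each.

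Leaving aside the ratio to Ptprc given below, 10 ratios had a value in every library. Only 2 of these separated TIS sEV from saline, both through Zap70, and neither has a test. No share over other gene pairs was counted beside them, and with 3 libraries on each side some ratios can separate by chance. Lck relative to Zap70 was 3.46, 3.54 and 3.62 in saline, 2.58 in Cont sEV, and 3.20, 2.32 and 2.63 in TIS sEV, so every vesicle library was below every saline library. Zap70 relative to Cd3g was 0.127, 0.131 and 0.157 in saline, 0.163 in Cont sEV, and 0.178, 0.499 and 0.162 in TIS sEV, above saline throughout. The margin of TIS sEV replicate 3 over the highest saline library was narrow. The summed 10 genes relative to Ptprc, which encodes the pan-leukocyte phosphatase CD45, were 9.10, 6.13 and 11.0 in saline, 13.5 in Cont sEV, and 16.8, 35.1 and 32.4 in TIS sEV. The groups did not overlap, yet 29.5% of all tested genes were also higher relative to Ptprc in every TIS sEV library.

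**Figure D5:**
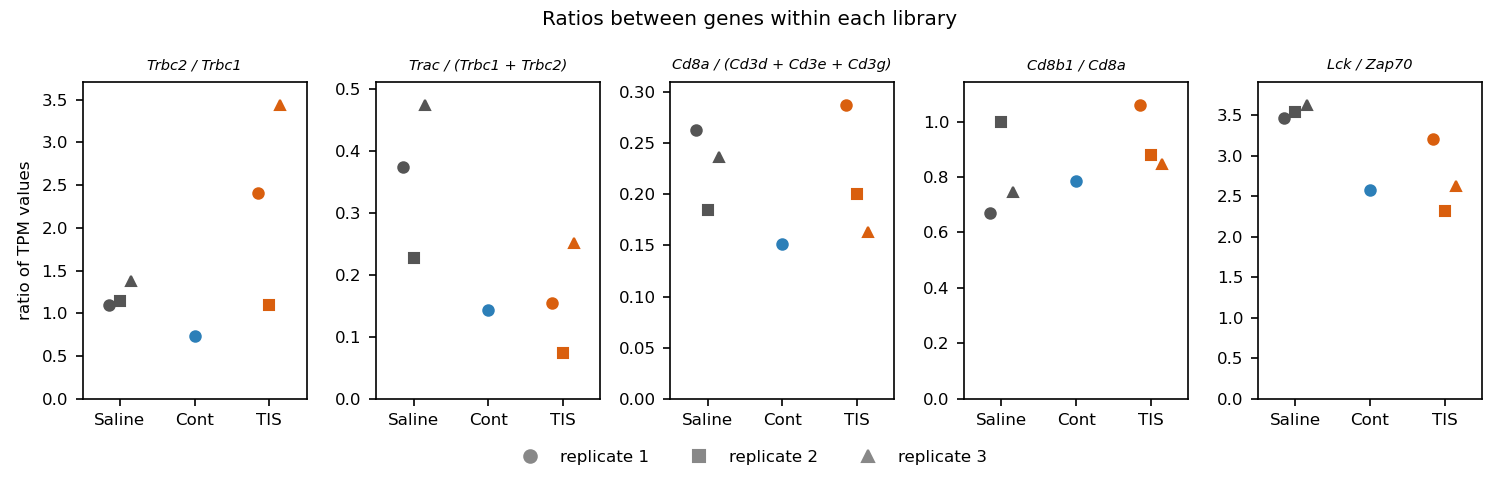
Ratios of TPM values between genes of the same library (vertical axes, from 0) by group, with symbols for the replicate number. Trbc2 over Trbc1 reaches 2.40 and 3.44 in TIS sEV replicates 1 and 3, and Lck over Zap70 is lower in all 3 TIS sEV libraries (2.32 to 3.20) than in saline (3.46 to 3.62).

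Partners of the receptor outside the 10 genes were mostly too low to test. Of 12 receptor, coreceptor and costimulatory partners 3 were tested, none was called, and all 3 stood above the median gene in TIS sEV against saline (median 0.53): Cd8b1 at 0.73, the γ chain constant gene Tcrg-C2 at 0.53 and the adhesion receptor Cd2 at 0.53. Tcrg-C1, not tested, measured 2.36, 0.145 and 0.970 TPM in TIS sEV replicates 1 to 3, against 0.182 to 0.470 in saline, so the groups overlapped. Most Trav and Trbv variable segments, which give the receptor its specificity, were at 0 TPM in every library. Summed over the Trbv genes, the level still reached 8.63 TPM in TIS sEV replicate 1. Of 128 Trav genes, 8, 11 and 14 were above 0 TPM in saline, 1 in Cont sEV, and 9, 0 and 8 in TIS sEV. Of 35 Trbv genes the numbers were 5, 11 and 9, then 3, then 7, 2 and 8. Fewer segments were seen in the Cont sEV library and TIS sEV replicate 2 than in the others, and depth, which TPM does not keep, was not tested as a cause.

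Among 26 genes of proximal signalling, the kinases, adaptors and phosphatases around the receptor, 17 were tested and none was called, 13 standing above the median gene (median 0.38). The most abundant were Csk, which inhibits Lck (-0.04), the phosphatase Ptpn6 (0.57), the adaptor Nck1 (-0.48) and the phosphatase Ptpn22 (0.08). Lat, the adaptor that Zap70 phosphorylates, is named after its value was seen. It was the highest of the 17 at 1.04 (limma adjusted p = 0.632), and Plcg1 was the lowest at -0.61 (limma adjusted p = 0.476). Further downstream, 16 of 19 distal signalling genes were tested, none was called, and 7 stood above the median gene (median -0.12). They included the kinase Mapk3 (0.27) and the NF-κB subunits Nfkb1 (-0.67) and Rela (0.10), which tumour cells express as well.

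Genes induced on T cell activation gave 9 tested of 19, none called, 7 above the median gene (median 0.39). Tigit, an inhibitory receptor, was at 0.38 and ranged from 5.17 to 59.6 TPM within TIS sEV. Havcr2 (Tim-3) was at 0.21, the costimulatory receptor Tnfrsf9 at -0.39 and the transcription factor Egr2 at -0.62. Over the 7 libraries Tnfrsf9 averaged 24.7 TPM and Tigit 18.8, where Cd3g averaged 8.06. The part of T cells in the levels of these activation genes was not tested. Of 16 T cell identity and subset genes 8 were tested, none was called, and 6 stood above the median gene (median 0.29), with Thy1 at 0.90, Gata3 at 0.05 and Klf2 at 0.29. Thy1 lay between 22.7 and 153 TPM and Gata3 between 11.2 and 47.5, where Cd3g lay between 1.98 and 15.9. The part of T cells in the Thy1 and Gata3 levels was not tested. Runx3, a regulator of the cytotoxic lineage named after its values were seen, was at 1.24 (adjusted p = 0.498), with 1.03, 1.75 and 1.96 TPM in saline and 2.99, 3.15 and 2.65 in TIS sEV.

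Markers of other cell types gave the setting of these values. Of 11 NK cell genes, which share cytotoxic transcripts with CD8 T cells, 7 were tested and none was called, 6 above the median gene (median 0.36), with Nkg7 at 0.77, Fcer1g at 0.63, Gzma at 0.45 and Gzmb at -0.19. Their summed level was 128 to 219 TPM in saline and 97.9 to 239 in TIS sEV, mostly Fcer1g, which myeloid cells also express. B cell markers were not tested, summing to 0.730 to 1.68 TPM in saline and 0.519 to 1.88 in TIS sEV, the highest being Cd22, Cd79b, Cd79a and Blk. Plasma cell genes held the only called genes of any list: Igkc, Ighg1 and Jchain were higher in TIS sEV, 3 of 6 tested, with fitted log2 differences of 3.91 (SE 0.66), 3.57 (SE 0.61) and 1.73 (SE 0.42). Their limma adjusted p-values were 5.03e-06, 8.04e-06 and 0.0124, and over size factors each was 0.338, no longer called. In the Cont sEV library Igkc was at 28.6 TPM and Jchain at 2.01, above TIS sEV replicate 1 (24.4 and 1.96). Ighg1 was at 3.65 TPM there, below TIS sEV replicate 1 (11.1). The abundant Sdc1 and Xbp1 of that list, which epithelial cells also express, were at -0.81 and -0.53. The part of plasma cell RNA in the member values was not tested.

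Lymph node stroma markers summed to 0.0479 to 0.372 TPM in saline, 1.20 in Cont sEV and 0.0276 to 1.93 in TIS sEV, highest in replicate 2, where Ccl19 was 1.01, Cxcl13 0.556, Glycam1 0.359 and Ccl21a 0 TPM. Of 7 genes of Cd8a-expressing dendritic cells, 2 were tested, Batf3 at 1.02 and Irf8 at 0.37, neither called, while Zbtb46, Itgae and the defining Xcr1 and Clec9a were too low to test, Xcr1 at 0.00621 to 0.0986 TPM. Monocyte and macrophage genes were all tested, 8 of 8, with none called and 4 above the median gene, C1qa at 0.50, Lyz2 at -0.67, Cd68 at 0.79 and Mrc1 at 1.06. Of the epithelial genes, which mark the carcinoma cells, 6 of 6 were tested, none was called, and 1 stood above the median gene (median -0.50), with Krt18 at -0.54, Krt8 at -0.46, Epcam at -0.62 and Cdh1 at -0.98. Krt8 lay between 218 and 1716 TPM, far above any T cell receptor gene.

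Genes outside the lists whose pattern over the 7 libraries was most like the mean of the 4 CD3 chains were Slc26a6 (Pearson r 0.98), Vwa1 (0.96), Ccnt1 (0.96), Faap100 (0.96) and Creld1 (0.96), on TPM over size factors. Of 10780 candidate genes, 33 had an r over 0.9. These correlations describe 7 libraries that share TIS sEV replicate 2 as the lowest and replicate 3 as the highest point of the CD3 profile.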

How the data were processed

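RNA was measured by RNA-seq in 7 primary tumour samples. The authors deposited a table of TPM values per gene, each column summing to 1000000. TPM keeps no depth, so the libraries' depth is unknown and counting intervals cannot be given. Per the submitters' processing notes, FastQC 0.11.9, Trim Galore 0.6.6, Salmon 1.4.0, DESeq2 1.28.0 and genome build GRCm38.p6 were used; the annotation is not given in the sources used here. Groups follow the labels. Gene symbols and positions came from GENCODE M21 (55227 of 55487 identifiers matched), and promoter sequences from RefSeq.

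The test was run with limma 3.58.1 (R 4.3.3) on log2(TPM + 1), which understates changes of low genes, over the 12058 genes that reached 1 TPM in 3 or more libraries. One fit held a mean for each of 3 groups (4 residual degrees of freedom), with an intensity trend, two-sided tests, Benjamini-Hochberg adjustment over all tested genes and a threshold of 0.05. Limma estimated infinite prior degrees of freedom, so a gene's own spread had no weight beside that fitted for its level. Values relative to the median gene are fitted differences minus their median over tested genes, and each p tests the fitted difference against 0. Ratios, sums and segment counts have no test. The fit was tested on simulated data, in which genes varied independently and changes were added to more abundant genes only. No simulated library was made like TIS sEV replicate 2, so that test does not show how the fit handles such a library. The alternatives were other scalings, pseudocounts, filters, a replicate block, and leaving out each library.

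The members and gene lists were chosen with earlier results of these data known. Named were all members, the 4 most abundant genes of each list and its called genes, and the 5 genes most like the CD3 chains. Some genes that this rule picks are not reported here.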

Additional observations from a re-analysis of the deposited data

How the results depend on the processing

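Limma called none of the tested members in any comparison under any of 18 alternatives, and the lowest adjusted p of a member for TIS sEV against saline was 0.0587 (Trbc2 without TIS sEV replicate 2). Of 155 member values relative to the median gene in TIS sEV against saline, 148 kept their direction. The exceptions were Cd3e with size factors and with the replicate block with size factors (-0.0098 each), at a pseudocount of 0.1 (-0.13) and with no filter (-0.066), and with no filter also Cd3g (-0.016) and Trac (-0.20), and Trac without TIS sEV replicate 3 (-0.071, the lowest of its values without 1 library, which reached 0.54). Against Cont sEV, with size factors, Trbc1 turned to 0.013 and Cd3d to -0.07. The cause was not tested.

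The number of genes called depended on the scaling. For TIS sEV against saline 62 were called as deposited, 0 with size factors, with or without TIS sEV replicate 2, with quantile normalization, with TPM rescaled over coding genes or with no filter, 39 with no intensity trend, and 7 to 353 when 1 library was left out. For TIS sEV against Cont sEV 27 became 1 with size factors (with or without that replicate) and quantiles, 2 with coding genes, 246 with no filter, 43 at a filter of 0.1 TPM, 12 with no trend, and 10 to 103 without 1 library. For Cont sEV against saline 25 became 1, 2, 2, 233, 54 and 16 in the same order, and 11 to 197 without 1 library. Saline and TIS sEV libraries of the same replicate number showed no common deviation from their group means (correlations -0.38, -0.01 and 0.08). With 3 libraries per group, these correlations cannot settle whether the samples were paired. The replicate block gave 14, 5 and 9 calls in the 3 comparisons and 0 in each with size factors. Size factors without TIS sEV replicate 2 were chosen after seeing the data. Cd8a relative to Cd3e alone has no value in TIS sEV replicate 2, where Cd3e is listed at 0. Depth, unknown here, limits the genes under 1 TPM, among them Cd247 and most receptor segments.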

Other observations

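Of 14 Trbj joining segments, Trbj2-2 was the only gene above 0, at 8.95 TPM in saline replicate 3, with 0 in the other 6 libraries. TPM keeps no depth, so the number of reads behind that value is unknown and may be small. None of 60 Traj segments was above 0. Trbv14, which had the highest mean of the variable segments, measured 5.29 TPM in TIS sEV replicate 1, against 0 to 0.500 TPM in the other 6 libraries, the same library in which Tcrg-C1 and Tigit were highest.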
